A study of Homo sapiens with 48 samples.

Results

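The 47 genes described here encode the machinery of DNA replication and the regulators of entry into S phase, and their mRNA levels were measured in HEK-AT1R-B6 cells under AII, EGF or both. The members were given as a list of gene symbols, and all 47 were among the 60610 genes of the count table and among the 19626 genes tested. They fall into 8 roles: origin licensing (10 genes), helicase activation (6), polymerases and primase (9), the sliding clamp and its loaders (7), Okazaki fragment maturation (2), nucleotide supply (4), G1-S regulators (4), and chromatin and checkpoint factors (5). HEK293 is a human embryonic kidney cell line. The cells used were 1 clone of it, obtained by limited dilution under puromycin and the AT1R antagonist losartan, which carried a plasmid and stably expressed AT1R, a receptor for angiotensin II (AII). All groups share this clone and the change to medium without serum before stimulation. Cells received no stimulus (control), 1 nM AII, 10 µg/L EGF, or both (AII + EGF), for 6 h or 24 h, which gives 8 groups with 6 libraries of poly(A) RNA in each.

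Before S phase, the origin recognition complex with CDC6 and CDT1 loads the MCM2 to MCM7 ring onto DNA, a step called licensing. Cyclin E, MCM10, CDC45 and the GINS complex then turn the ring into a moving helicase, and polymerase alpha with primase, polymerases delta and epsilon, the clamp PCNA and its loader RFC copy the strands. FEN1 and LIG1 trim and join Okazaki fragments, and ribonucleotide reductase supplies deoxynucleotides. Many of these genes are classical targets of E2F transcription factors, which RB proteins hold back in resting cells. HEK293 cells were made with adenovirus DNA, and viral proteins of the line bind RB proteins.

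Of the 48 deposited libraries, 38 were used, with 4, 5, 3 and 4 libraries for control, AII, EGF and AII + EGF at 6 h and 6, 5, 5 and 6 at 24 h. Left out were 8 libraries that formed 4 pairs with nearly identical counts, 3 of these pairs across labelled groups. The chi-square per degree of freedom of these pairs was 0.397 to 0.505, and the lowest among the other 119 pairs within a group was 2.02. The last libraries labelled AII 6 h and AII + EGF 6 h were also left out. On a scale over 1492 genes that is 0 for AII 6 h and 1 for AII + EGF 6 h, they lay at 0.86 and -0.01, the reverse of their labels. The libraries used held 17.8 to 30 M counts with a median of 21.7 M. The 3 EGF 6 h libraries were deeper, at 28 to 30 M, than the 4 control 6 h libraries, at 19 to 22.7 M, and the part of depth in the EGF 6 h results was not tested. Every member had between 179 and 23521 counts in every library used. AGTR1, the gene of the transfected receptor, stood at 3960 to 15200 CPM, counts scaled to a common library size. VIM, KRT8 and KRT18, which HEK293 cells express, lay between 18.1 and 622 CPM, and the kidney factor PAX2 between 0.274 and 3.9 CPM. The markers of leukocytes, endothelium and hepatocytes (PTPRC, PECAM1, CDH5, ALB) reached at most 9 counts, whereas the fibroblast collagens COL1A1 and COL3A1 were present at 7.57 to 44.7 CPM. In titles, the samples follow each other in 8 stretches that each pass once through the treatments at a single time, called title runs here. Nothing in the labels says what a title run was.

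The DNA upstream of some of the genes whose levels moved, or that regulate S phase entry, is shown because E2F factors bind such promoters. The sequences are the 120 bases before the RefSeq transcription start on GRCh38.p14, 5′ to 3′ on the strand of the gene, with E2F-type motifs and CCAAT boxes in capitals. Searched on both strands were the E2F-type letters TTTCCCGC, TTTGGCGC, TTTCGCGC and TTTGCCGC, which do not overlap CCAAT. Other spellings of E2F sites were not searched and stay in lower case, so counts of E2F-type motifs cover these letters only. An E2F-type match of CLSPN that crosses the start is not marked. The 120 bases before the start of CCNE1 hold none of these letters and are not printed. RefSeq lists 2 starts for RRM2 and for POLD1, and the one listed first is used. For RRM2 it is 10122739, inside the gene as annotated, and the 120 bases before the outer start at 10122568 hold none of these letters.
RRM2 (chr2:10122619-10122738, plus strand, with 2 CCAAT boxes in series): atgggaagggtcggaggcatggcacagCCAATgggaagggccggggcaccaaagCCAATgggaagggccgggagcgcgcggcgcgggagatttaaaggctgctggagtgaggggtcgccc
MCM10 (chr10:13161438-13161557, plus strand, with 2 CCAAT boxes): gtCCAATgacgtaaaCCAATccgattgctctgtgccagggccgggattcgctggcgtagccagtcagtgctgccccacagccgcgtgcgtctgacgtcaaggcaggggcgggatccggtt
CDT1 (chr16:88803669-88803788, plus strand, with 1 E2F-type motif): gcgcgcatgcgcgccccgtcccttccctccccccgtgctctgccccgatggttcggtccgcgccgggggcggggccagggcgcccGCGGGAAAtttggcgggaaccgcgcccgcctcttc
LIG1 (chr19:48170345-48170464, minus strand, with 1 E2F-type motif): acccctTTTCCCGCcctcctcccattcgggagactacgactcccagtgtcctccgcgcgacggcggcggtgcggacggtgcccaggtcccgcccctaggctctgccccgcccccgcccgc
POLD1 (chr19:50384203-50384322, plus strand, with none of these letters): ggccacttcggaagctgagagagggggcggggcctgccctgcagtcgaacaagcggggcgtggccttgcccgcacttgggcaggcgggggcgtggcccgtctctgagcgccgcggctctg
E2F2 (chr1:23531234-23531353, minus strand, with 1 E2F-type motif): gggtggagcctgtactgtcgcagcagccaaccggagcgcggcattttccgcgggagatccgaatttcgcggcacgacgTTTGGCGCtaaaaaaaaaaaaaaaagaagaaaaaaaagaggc
CLSPN (chr1:35769979-35770098, minus strand, with 3 CCAAT boxes on the other strand): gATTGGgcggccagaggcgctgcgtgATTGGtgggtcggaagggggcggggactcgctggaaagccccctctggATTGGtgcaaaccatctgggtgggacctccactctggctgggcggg

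A promoter window of 300 bases, from 250 before to 50 after the start, was given for 41 of the 47 members. An E2F-type motif stood in 21 of the 41, or 51.2%, counting a gene if any of its windows held one, against 3.99% of all 27305 genes and 3.31% of all 35116 windows. CCAAT stood in 24 of the 41, or 58.5%, against 39.7% of all genes and 34.6% of all windows. Among the genes that moved under AII + EGF at 6 h, both risers with a window (RRM2 and MCM10) held CCAAT and no E2F-type motif in it. Of the 3 fallers with a window, CDT1 and LIG1 held an E2F-type motif, POLD1 did not, and none held CCAAT. Of the 13 members that fell in control cells between 6 h and 24 h, 11 had a window. CCAAT stood in 9 of these, RRM2 and MCM10 among them, and an E2F-type motif in 6. A link between motif and direction was not tested. These matches describe letters in a window and not binding of a factor. CCNE2, MCM5, MCM4, GINS4, DSCC1 and POLD3 had no window.

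AII + EGF moved 7 members at 6 h, in both directions, and each single stimulus moved 1. A member is said to have passed when its Benjamini-Hochberg adjusted p from edgeR over all tested genes was under 0.01. Under AII + EGF at 6 h, 3 members rose and 4 fell, while 23.4% of all tested genes passed in this comparison, 12.4% with a rise and 11% with a fall. RRM2, CCNE2 and MCM10 rose, and CDT1, LIG1, POLD1 and MCM5 fell. The other 40 members did not pass, and the median log2 change of the 47 was -0.05, beside -0.03 over all tested genes. The study's minima are a change of at least 1.5-fold and more than 5 CPM in the higher group. With these added in edgeR alone, 5 of the 47 were called, against 12% of all genes. The study also asked that DESeq2, its other tool, find the gene, which was not applied to these counts. The heat map sets these changes beside those of the other comparisons.

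**Figure D1:**
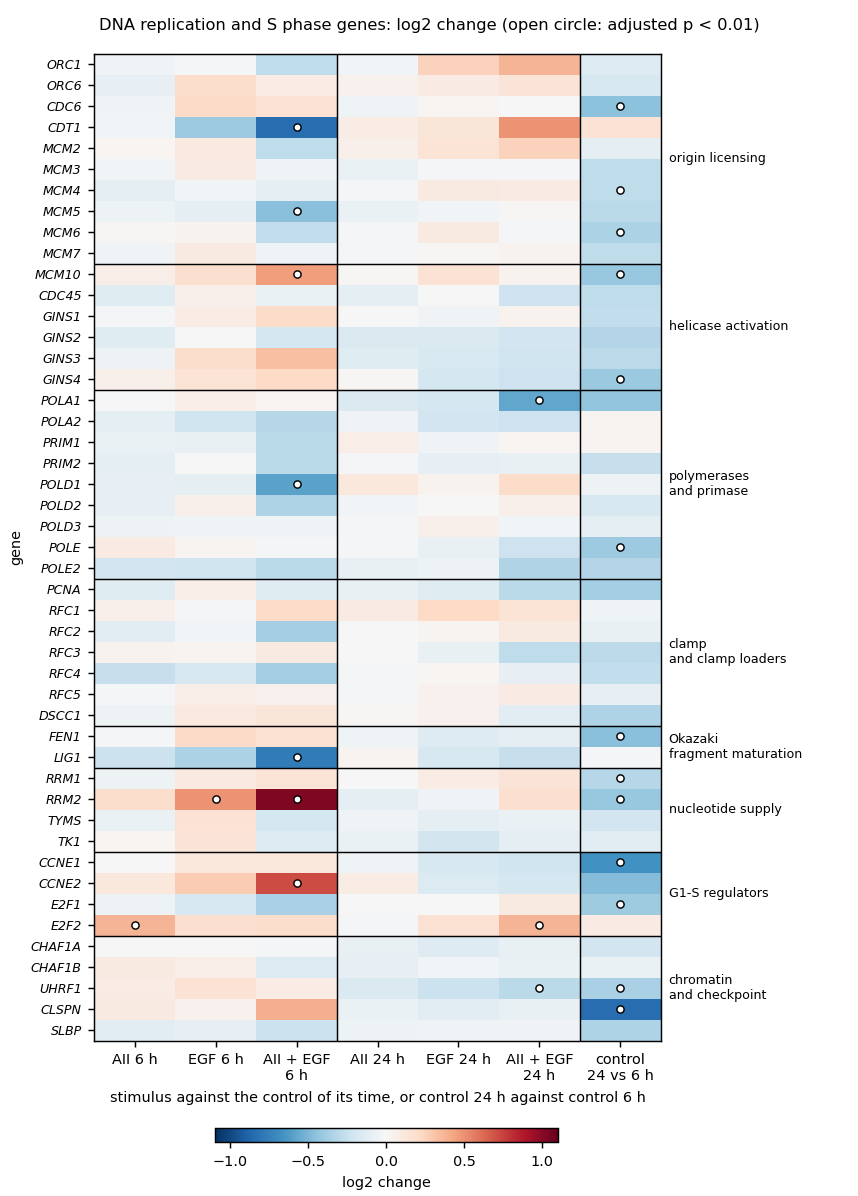
Heat map of the log2 change of each of the 47 genes (rows, grouped by role) in the 6 comparisons of a stimulus with the control of its time and in control 24 h against control 6 h (columns). Open circles mark an adjusted p under 0.01. Circles are sparse in the stimulus columns (7 in the AII + EGF 6 h column), and the 13 circles of the last column are all on the blue side, which marks lower levels.

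RRM2, the small subunit of ribonucleotide reductase and its S phase specific part, showed the widest response of the list. Its level was 255, 241, 254 and 194 CPM in the 4 control 6 h libraries and 454, 428, 484 and 563 CPM in the 4 AII + EGF 6 h libraries. The lowest stimulated library stood far above the highest control library. The log2 change was 1.03 ± 0.12 (SE), a 2.04-fold rise with an adjusted p of 3.82e-09. RRM2 lies on chromosome 2, 10122568 to 10211010 (GRCh38.p14), and has 3 named pseudogene copies that could share its reads. RRM1, the large subunit of the same enzyme, did not pass and overlapped between the groups, with 267 to 350 CPM in control 6 h and 307 to 378 CPM under AII + EGF.

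CCNE2, an E-type cyclin that activates CDK2 at the G1-S boundary, was at 19.7, 20.7, 23 and 22.8 CPM in control 6 h and at 35.3, 34.2, 40.6 and 31.8 CPM under AII + EGF. The groups did not overlap, and the log2 change was 0.72 ± 0.18 (adjusted p = 0.00141). CCNE2 overlaps the coding genes INTS8 and NDUFAF6. Its paralog CCNE1 did not pass, with a log2 change of 0.12 ± 0.17 and 23.9, 24, 24.5 and 27.7 CPM under AII + EGF beside 21.3 to 23.9 CPM in control. MCM10, a scaffold needed to activate the licensed helicase, was at 67.2, 66, 68.2 and 56.7 CPM in control 6 h and at 80.4, 87.1, 94.7 and 92.1 CPM under AII + EGF. All 4 stimulated libraries lay above all 4 controls, and MCM10 rose 1.37-fold, a log2 change of 0.46 ± 0.09 (adjusted p = 7.92e-05).

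CDT1, the licensing factor that brings the MCM ring to origins and is kept scarce outside G1, was at 163, 138, 116 and 101 CPM in control 6 h and at 69.8, 72.5, 65.4 and 80.9 CPM under AII + EGF. The control libraries were widely spread, and all 4 lay above the stimulated ones. CDT1 fell by 0.84 ± 0.21 on the log2 scale (adjusted p = 0.00153), but the adjusted p was 0.0116 without control 6 h replicate 3. LIG1, the ligase that seals Okazaki fragments, was at 121, 131, 114 and 139 CPM in control 6 h and at 78.3, 82.3, 66.5 and 68.3 CPM under AII + EGF. LIG1 separated the groups most clearly among the members that fell, by 0.77 ± 0.09 on the log2 scale (adjusted p = 8.28e-09). An antisense gene, LIG1-AS1, overlaps it, and without stated strandedness their reads cannot be told apart.

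POLD1, the catalytic subunit of polymerase delta, which extends the lagging strand, was at 184, 172, 148 and 176 CPM in control 6 h and at 107, 128, 99.6 and 116 CPM under AII + EGF. The groups did not overlap, and POLD1 fell by 0.59 ± 0.11 on the log2 scale (adjusted p = 2.81e-05). MCM5, a subunit of the MCM2 to MCM7 ring, was at 277, 263, 204 and 195 CPM in control 6 h and at 177, 165, 159 and 182 CPM under AII + EGF. MCM5 fell by 0.46 ± 0.13 (adjusted p = 0.00507), with no overlap of the groups. Its call was lost in 4 of the 8 fits that left out 1 library, with an adjusted p of up to 0.035. In bulk RNA, fewer cells in a phase of the cycle and less RNA per cell cannot be told apart.

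The genes of a role did not move as a block under AII + EGF at 6 h. Of the 6 subunits of the MCM ring, only MCM5 passed, and MCM2, MCM3, MCM4, MCM6 and MCM7 had log2 changes of -0.28, -0.05, -0.11, -0.27 and -0.04. Among the 9 polymerase and primase genes, 8 had a log2 change below 0 and only POLD1 passed, with a median of -0.30 for the role. The helicase activation genes had a median of 0.21, with MCM10 as the only one of 6 that passed. None of the 7 clamp and loader genes passed, and PCNA, the clamp, had a log2 change of -0.13 ± 0.15. E2F1, an activating E2F factor, did not pass (-0.36 ± 0.12, adjusted p = 0.0209), although its 4 stimulated libraries lay below all controls. CDC6 (0.16 ± 0.11), SLBP (-0.24 ± 0.12), the histone mRNA binding protein, and E2F2 (0.19 ± 0.09) did not pass either. For 11 of the 47 members the AII + EGF and control libraries of 6 h did not overlap, where 33.4% of all tested genes had no overlap.

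Within title runs 4 and 5, which held both groups, the values had the sign of the pooled value for all 7 members. Of the libraries used, run 1 held AII + EGF without a control, and run 7 a control without AII + EGF. Run 4, with 1 AII + EGF and 2 control libraries, gave log2 differences of 0.97 for RRM2, 1.00 for CCNE2, 0.51 for MCM10, -1.20 for CDT1, -0.92 for LIG1, -0.84 for POLD1 and -0.77 for MCM5. Run 5, with 1 library of each, gave 1.15, 0.46, 0.43, -0.52, -0.74, -0.35 and -0.16 in the same order. The sizes for CCNE2, CDT1, POLD1 and MCM5 differed by more than 1.5 times between these runs. AGTR1 mRNA rose in the same comparison, from 4270 ± 239 CPM (SD, n = 4) in control to 10000 ± 436 CPM (SD, n = 4) under AII + EGF, and its part in the members' changes was not tested.

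**Figure D2:**
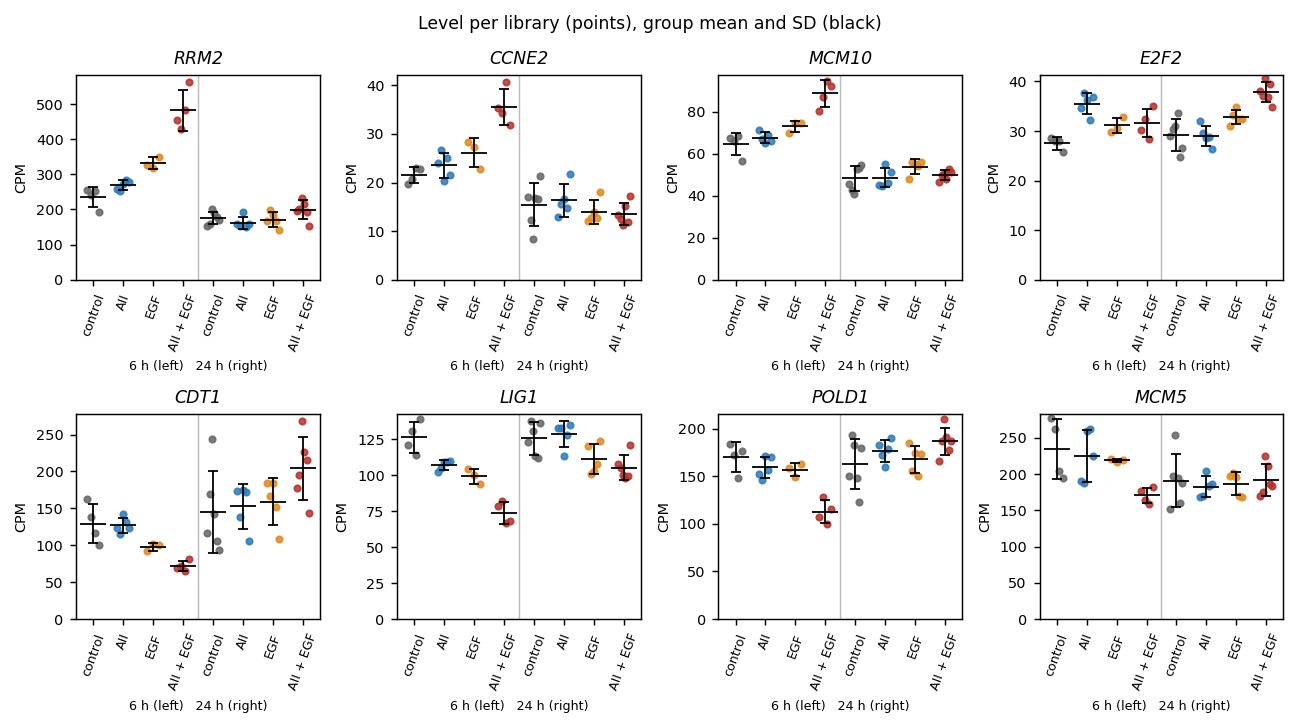
Level in CPM (y axes, from 0) of 8 members in each of the 38 libraries used, by group (x axes, 6 h on the left and 24 h on the right of each panel). Points are libraries, and black lines are the group mean and SD. RRM2 is highest under AII + EGF at 6 h (428 to 563 CPM, beside 194 to 255 CPM in control). Its AII 6 h libraries (254 to 285 CPM) overlap control, and at 24 h its groups overlap. CDT1, LIG1, POLD1 and MCM5 are lowest under AII + EGF at 6 h.

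The single stimuli moved 1 member each at 6 h. Under AII, E2F2, an activating E2F factor, rose from 28.6, 27.9, 27.9 and 25.7 CPM in control to 34.7, 37.6, 36.3, 32.3 and 36.8 CPM. The groups did not overlap, and the log2 change was 0.37 ± 0.08 (adjusted p = 0.00704), in a comparison in which 0.922% of all tested genes passed and 0.836% rose. This call was lost in 8 of the 9 fits without 1 library, with values of 0.34 to 0.40 and an adjusted p of up to 0.0541, and in 7 of the 11 other alternatives. Under EGF, RRM2 rose to 326, 318 and 350 CPM, a log2 change of 0.49 ± 0.12 (adjusted p = 0.00906), where 3.37% of all genes passed and 2.71% rose. All 3 EGF libraries lay above all 4 controls, yet the call was lost in each of the 7 fits without 1 library, with values of 0.39 to 0.53 and an adjusted p of up to 0.0874, and in 6 of the 11 other alternatives. Neither change reached 1.5-fold.

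For most members a change of 1.5-fold under AII or EGF at 6 h lay outside the 95% interval. The interval of the change stayed within 1.5-fold in either direction for all 47 members under AII, for 44 under EGF and for 33 under AII + EGF. LIG1 had log2 changes of -0.24 under AII (adjusted p = 0.16) and -0.35 under EGF (adjusted p = 0.0213), and neither passed. CDT1 was at 91.8, 102 and 100 CPM under EGF, with a log2 change of -0.40 ± 0.23 and an adjusted p of 0.362. AII left it at 115 to 143 CPM, within the range of control. For 4 of the 47 members under AII and 5 of the 47 under EGF the libraries did not overlap with control. The shares of all genes without overlap were 7.52% and 22.1%.

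Set against each single stimulus, AII + EGF at 6 h raised RRM2 again. Against EGF, RRM2 was higher (0.54 ± 0.12, adjusted p = 0.00293), and LIG1 (-0.43 ± 0.10, adjusted p = 0.00226) and POLD1 (-0.48 ± 0.11, adjusted p = 0.00423) were lower. These 3 of 47 stand beside 5.41% of all genes, 2.7% higher and 2.72% lower. Against AII, 4 members were higher (RRM2, CCNE2, MCM10 and GINS3, a GINS subunit, with log2 differences of 0.84, 0.59, 0.39 and 0.39) and 3 were lower (CDT1, LIG1 and POLD1 with -0.82, -0.54 and -0.50), 7 of 47 where 17.6% of all genes passed, 9.48% higher and 8.08% lower. All of these comparisons share their AII + EGF libraries with the comparison against control.

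Whether the joint response differed from the sum of the single responses was asked with the interaction of AII and EGF on the log2 scale. No member passed at 6 h in edgeR or DESeq2, beside 0.265% of all tested genes in edgeR. An unadjusted p under 0.05 was found in edgeR for 5 of the 47, beside 1916 of all 19626 tested genes. The interaction of RRM2 was 0.35 with a 95% interval of 0.02 to 0.68 (adjusted p = 0.476). That of POLD1 was -0.38, from -0.69 to -0.08 (adjusted p = 0.332). For CCNE2 it was 0.31, from -0.20 to 0.83, and for CDT1 -0.41, from -1.02 to 0.19. The intervals of 31 members stayed within 1.5-fold. At 24 h no member passed either (0% of all genes), and 2 had an unadjusted p under 0.05, beside 660 of all 19626 genes.

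After 24 h of stimulation, 3 members differed from the control of that time under AII + EGF and none under a single stimulus. Under AII none passed in edgeR or DESeq2, 0% of all tested genes passed, and the log2 changes lay between -0.16 and 0.12. None had an unadjusted p under 0.05 in edgeR, beside 343 of all 19626 genes. Under EGF none passed in edgeR or DESeq2, beside 0.586% of all genes. In edgeR 6 had an unadjusted p under 0.05, beside 2876 of all 19626 genes. Intervals stayed within 1.5-fold for all 47 members under either stimulus. Under AII + EGF, E2F2 rose and POLA1 and UHRF1 fell, 3 of 47 where 10.4% of all genes passed, 5.29% with a rise and 5.1% with a fall. None of the 3 changed by 1.5-fold. The count was 12 with title runs as a block (22.4% of all genes), 7 without AII + EGF 24 h replicate 6 (14.2%), 5 without control 24 h replicate 3 (13.1%) and 0 in a fit of these groups alone (3.59%).

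E2F2 ranged over 24.7 to 33.6 CPM with a median of 29.7 in the 6 control 24 h libraries and over 34.9 to 40.6 CPM with a median of 37.6 in the 6 AII + EGF 24 h libraries. It was the only member whose groups did not overlap in this comparison, where 4.73% of all genes had none. The log2 change was 0.37 ± 0.07 (adjusted p = 0.000163), and within the 4 title runs of 24 h it was 0.26 to 0.67. Against AII at 24 h it was the only member that passed (0.38 ± 0.07, adjusted p = 0.000569, beside 4.64% of all genes, 2.38% with higher values). Against EGF at 24 h none passed (0.168% of all genes), and 7 had an unadjusted p under 0.05, beside 2094 of all 19626 genes.

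POLA1, the catalytic subunit of polymerase alpha, which lays down the first DNA on each primer, ranged over 97.9 to 152 CPM with a median of 122 in control 24 h. Under AII + EGF it ranged over 67.3 to 116 CPM with a median of 76.8. AII + EGF replicate 6, at 116 CPM, was the only library that reached into the control range, and control replicate 6 was the highest control. POLA1 fell by 0.57 ± 0.12 on the log2 scale (adjusted p = 0.000724), and by 0.51, 0.62, 0.79 and 0.38 within runs 2, 3, 6 and 8. UHRF1, which guides the maintenance of DNA methylation at replication forks, ranged over 274 to 367 CPM in control and 208 to 290 CPM under AII + EGF. Its fall by 0.30 ± 0.08 (adjusted p = 0.00681) was lost in 5 of the 12 fits without 1 library, with an adjusted p of up to 0.0552, and in 7 of the 11 other alternatives. CDT1, lower at 6 h, had a log2 change of 0.49 ± 0.17 (adjusted p = 0.0343) at 24 h, with 144 to 268 CPM under AII + EGF and 93.5 to 244 CPM in control.

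The AII + EGF responses at 24 h and at 6 h were compared directly, each against its own control. For 8 of 47 members the responses differed (16.4% of all tested genes did, 7.59% upwards and 8.84% downwards), and 4 of the differences had each sign. RRM2 had a log2 change of 1.03 at 6 h and 0.18 at 24 h, a difference of -0.85 ± 0.15 (adjusted p = 2.99e-05). For CCNE2 the changes were 0.72 and -0.19, and for MCM10 0.46 and 0.04. CDT1 had the widest difference, 1.34 ± 0.27 (adjusted p = 0.000219), between -0.84 at 6 h and 0.49 at 24 h. POLD1 went from -0.59 to 0.20, and LIG1 from -0.77 to -0.25. ORC1, a subunit of the origin recognition complex, and GINS3 passed in this comparison without passing at either time. Their log2 changes were -0.28 and 0.33 at 6 h and 0.37 and -0.22 at 24 h. For AII (0.153% of all genes) and for EGF (1.3%) no member's response differed between the times. An unadjusted p under 0.05 was found in edgeR for 3 and 4 members, beside 1574 and 3003 of all 19626 genes. Times and title runs cannot be told apart. Each response was taken within its time, which does not remove differences between runs. At 6 h the AII + EGF libraries came from runs 1, 4 and 5 and the controls from runs 4, 5 and 7. The difference between times was not fitted with title runs as a block.

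**Figure D3:**
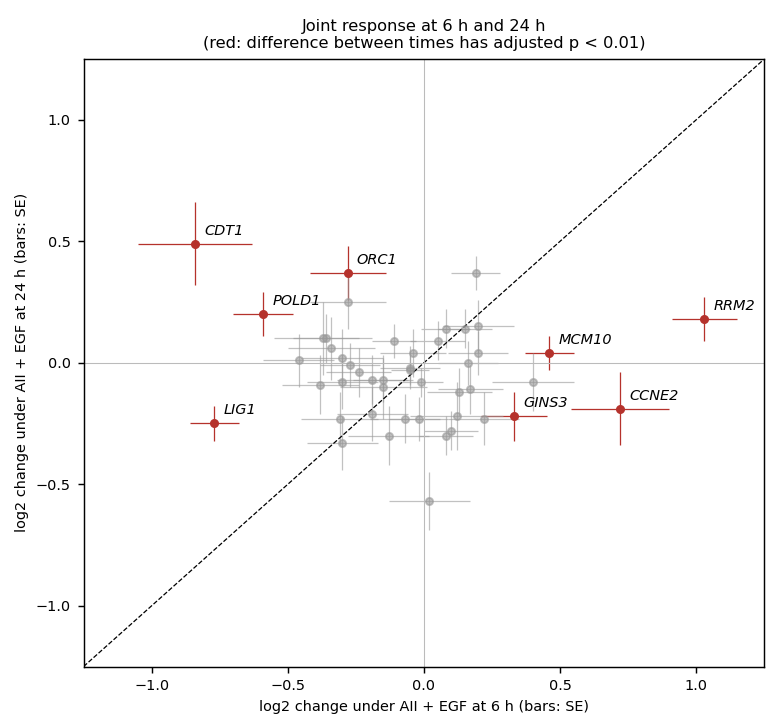
Log2 change of the 47 members under AII + EGF against control at 6 h (x axis) and at 24 h (y axis), with SE bars and the line of equal response. The 8 members in red are those whose response differed between times. RRM2 lies far right at 1.03 with 0.18 on the y axis, and CDT1 at -0.84 and 0.49.

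The control cells themselves changed between 6 h and 24 h, and there the members that passed moved in a single direction. In control 24 h against control 6 h, 13 of 47 members fell and none rose, where 9.16% of all tested genes fell and 11.9% rose. The median log2 change of the 47 was -0.28, beside 0.03 over all genes, and 43 of 47 values were below 0. CLSPN, FEN1, CDC6, CCNE1, MCM10 and RRM2 were among those that fell, with MCM4, MCM6, GINS4, POLE, RRM1, E2F1 and UHRF1. With the study's fold and abundance minima in edgeR alone, CLSPN and CCNE1 were called, 2 of 47, beside 6.73% of all genes. For 7 members the groups did not overlap, all with lower values at 24 h. Counting both directions, 15.1% of all genes had no overlap.

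CLSPN, the adaptor that carries the replication checkpoint signal to CHK1, was at 99, 114, 130 and 99.9 CPM in control 6 h. In the 6 control 24 h libraries it ranged over 33.9 to 79.4 CPM with a median of 65.9. All libraries of 24 h lay below all of 6 h, and CLSPN fell by 0.84 ± 0.14 on the log2 scale (adjusted p = 1.7e-05). CCNE1 was at 23.9, 23.8, 21.3 and 23.2 CPM at 6 h and ranged over 11.9 to 22.1 CPM with a median of 13.1 at 24 h. Only control 24 h replicate 6, at 22.1 CPM, reached the range of 6 h, and CCNE1 fell by 0.67 ± 0.15 (adjusted p = 0.000848). CDC6, the loader of the MCM ring, was at 155, 138, 144 and 119 CPM at 6 h and ranged over 86.4 to 114 CPM with a median of 103 at 24 h. CDC6 fell by 0.45 ± 0.10 (adjusted p = 0.000773) with no overlap.

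The remaining falls were smaller than those of CLSPN and CCNE1. FEN1, the flap nuclease, fell by 0.46 ± 0.11 on the log2 scale (adjusted p = 0.00121), with 156 to 234 CPM at 6 h and 115 to 159 CPM at 24 h. MCM10 and RRM2, the risers under AII + EGF, fell in control cells by 0.42 ± 0.08 and 0.42 ± 0.10. The falls of GINS4, POLE, E2F1, UHRF1, MCM6, RRM1 and MCM4 lay between 0.28 and 0.41. Among the members that missed the threshold were CCNE2 (-0.48 ± 0.16, adjusted p = 0.0194), PCNA (-0.37 ± 0.14, adjusted p = 0.0351), SLBP (-0.34 ± 0.11, adjusted p = 0.0193), MCM3 (-0.28 ± 0.10), MCM5 (-0.30 ± 0.12) and MCM7 (-0.28 ± 0.11). MCM2 (-0.11 ± 0.13) and E2F2 (0.09 ± 0.08) did so too. CDT1 had the highest value of the list, 0.16 ± 0.19, with control 24 h replicate 3 at 244 CPM.

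**Figure D4:**
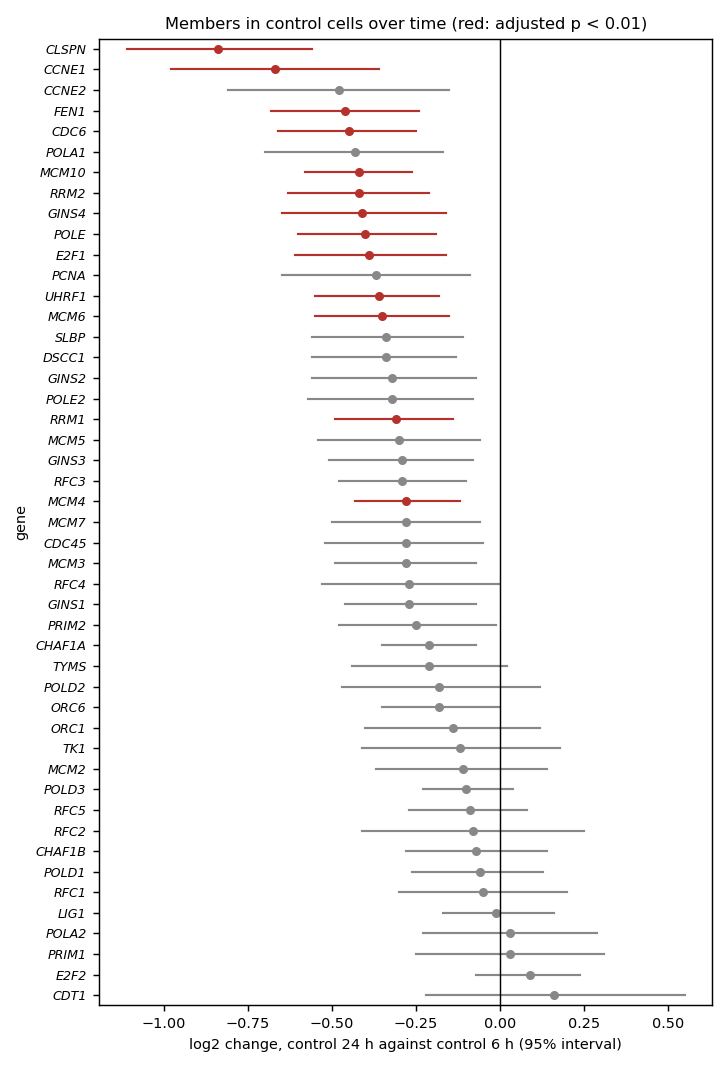
Log2 change of each member (rows, sorted) in control 24 h against control 6 h, with its 95% interval. Red marks the 13 members with an adjusted p under 0.01. All but 4 points lie left of 0, from -0.84 for CLSPN to 0.16 for CDT1.

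Every title run holds a single time, so the change of the control cells with time and the difference between runs cannot be told apart. Runs that follow each other in titles differed in what they gave. The median of the 47 log2 differences was -0.29 between runs 3 and 4, -0.30 between runs 5 and 6, and -0.05 between runs 7 and 8, with 40, 45 and 36 members below 0. For CCNE1 these differences were -0.93, -0.62 and -0.07, for CLSPN -1.18, -0.76 and -0.33, and for CDC6 -0.41, -0.51 and -0.07. The count that fell depended on single libraries. It was 6 without control 6 h replicate 3 or without replicate 4, where 5.72% and 6.63% of all genes fell. It was 8 without control 6 h replicate 5 (6.8%) or without control 24 h replicate 2 (6.86%), and 17 with control 24 h replicate 3 (11.1%) or 6 (11.5%) left out. In all 48 libraries 3 members fell, with a median of -0.16, beside 2.75% of all genes, and in a fit of the control libraries alone none passed, beside 1.7%.

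Averaged over the 47 members, group means lay lower at 24 h than at 6 h in all 4 conditions. Each title run holds a single time, so time and run cannot be told apart here either. Single members could go the other way. CDT1 under AII + EGF was at 65.4 to 80.9 CPM at 6 h and at 144 to 268 CPM at 24 h. The mean log2 CPM over the 47 members, relative to control 6 h, was 0 ± 0.11 in control (SD, n = 4), -0.03 ± 0.09 under AII (n = 5), 0.04 ± 0.04 under EGF (n = 3) and -0.06 ± 0.09 (n = 4) under AII + EGF at 6 h. After 24 h the mean was -0.27 ± 0.09 in control (SD, n = 6), -0.29 ± 0.11 under AII (n = 5), -0.29 ± 0.07 under EGF (n = 5) and -0.30 ± 0.06 under AII + EGF (n = 6). Within each time the groups overlapped. Under AII the libraries of 6 h and 24 h overlapped as well. AII 24 h replicate 3 lay at -0.122, above AII 6 h replicates 1 and 2 at -0.129 and -0.127.

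**Figure D5:**
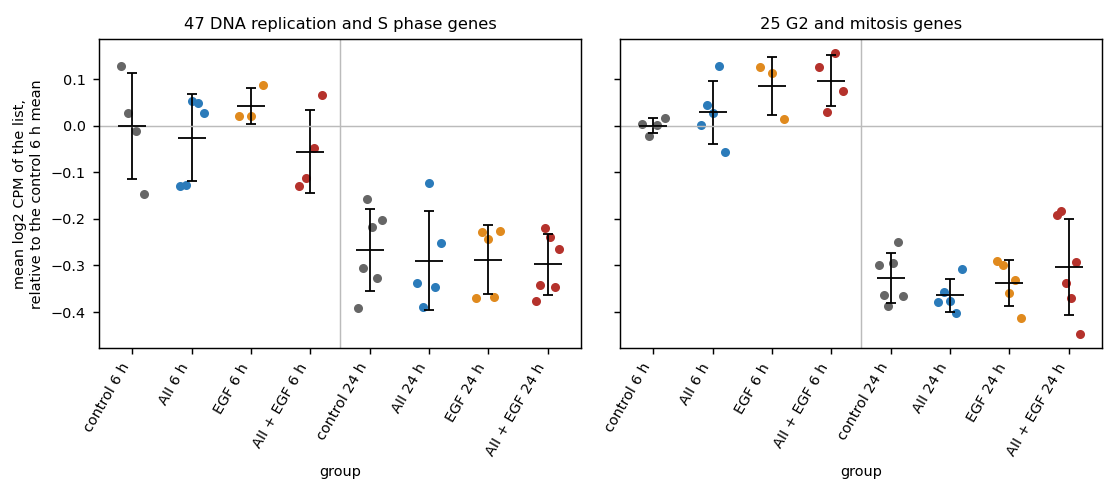
Mean log2 CPM of the 47 DNA replication and S phase genes (left) and of 25 G2 and mitosis genes (right) in each library, relative to the control 6 h mean (y axis), by group (x axis). Points are libraries, and black lines are the group mean and SD. The means of both lists lie lower at 24 h than at 6 h in every condition, at -0.27 in control 24 h for the members and -0.33 for the mitosis genes.

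Genes of related function that are not members are given by the same counts. Of all tested genes, 12.4% rose and 11% fell under AII + EGF at 6 h, and 5.29% and 5.1% at 24 h. In control cells over time 11.9% rose and 9.16% fell. Under AII and EGF alone 0.922% and 3.37% passed at 6 h, and 0% and 0.586% at 24 h. Of 40 other replication genes tested, none passed under AII or EGF at either time. Under AII + EGF at 6 h 3 of them rose and 4 fell, with TOP1, which relaxes supercoils ahead of the fork, at 0.94 ± 0.11 and TIMELESS, a fork protection factor, at -0.85 ± 0.08 as the furthest of those that passed. ORC2 (0.35) and the methyltransferase DNMT1 (0.29) also rose, and the thymidylate pathway enzyme DTYMK (-0.47) and ORC3 (-0.42) were among those that fell. Under AII + EGF at 24 h 4 fell, among them the histone chaperone ASF1B at -0.44 and MTBP at -0.42. In control cells over time 13 of the 40 fell and none rose, with a median of -0.26, with POLE4, a small subunit of polymerase epsilon (-0.73), MCM9 (-0.59) and DTYMK (-0.56) as the furthest of those that passed.

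Of the E2F and RB network, 17 genes without the members E2F1 and E2F2, no gene passed under a single stimulus. Under AII + EGF 5 of the 17 passed at 6 h and 2 at 24 h, where 23.4% and 10.4% of all tested genes passed. Under AII + EGF at 6 h E2F3 (0.43), E2F6 (0.42) and CDC25A (0.41), the phosphatase that frees CDK2, rose, while RBL2, an RB relative that represses E2F targets in resting cells, fell by 1.18 ± 0.15 and the E2F partner TFDP2 fell by 0.36. CDC25A also rose at 24 h under AII + EGF (0.45 ± 0.07), and E2F7, a repressor, fell by 0.35. In control cells over time 5 of the 17 fell, where 9.16% of all tested genes fell. E2F4 (-0.76), CCNA2 (-0.42) and TFDP1 (-0.36) were the furthest of those that passed.

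Among 10 genes that control G1, cyclin D1 (CCND1) rose under EGF at 6 h by 0.71 ± 0.11 and under AII + EGF by 0.77 ± 0.10, and the CDK inhibitor CDKN1A rose by 0.63 ± 0.15 and 0.91 ± 0.14. Under AII + EGF at 6 h CDK6 also rose (0.82), and the inhibitors CDKN2C (-0.51) and CDKN1B (-0.50) and MYC (-0.44) fell. At 6 h 2 of the 10 passed under EGF and 6 under AII + EGF, where 3.37% and 23.4% of all tested genes passed. Of the 25 G2 and mitosis genes only BUB1 passed in any of the 6 comparisons with control, under AII + EGF at 6 h (0.34 ± 0.08). That was 1 of 25, beside 23.4% of all tested genes in this comparison. Over time in control cells 8 of the 25 fell and none rose, where 9.16% of all tested genes fell and 11.9% rose. The median of the 25 was -0.32, and CDC20 (-0.70) and BUB1 (-0.59) led the falls. CDKN1C, another CDK inhibitor, rose by 0.73 ± 0.15 as the only 1 of the 10 G1 genes that passed. The collagens COL1A1 (1.04 ± 0.20) and COL3A1 (0.89 ± 0.15) and AGTR1 (0.79 ± 0.16) rose in the same comparison, and their part in the members' change was not tested.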

How the data were processed

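The authors isolated total RNA, enriched poly(A) RNA, sequenced it in pairs, mapped reads to hg38 with HISAT2 2.1.0 and counted fragments per Ensembl gene with featureCounts. They deposited raw counts, and 37 mitochondrial genes are at 0 counts throughout. The strand setting and the treatment of reads with several positions are not given in the sources used here. Groups came from the labels, replicates were numbered in order of deposition, and nothing says that libraries came from separate cultures, so p-values measure the spread between libraries, which may be technical. The study states 5 replicates per condition, and 6 were deposited.

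The members and gene lists were chosen with earlier results of these data known. The 38 libraries were analysed with edgeR 4.0.16 (R 4.3.3) in 1 quasi-likelihood fit with a mean per group, after filterByExpr and TMM scaling, without covariates. Fold changes have SE and 95% intervals from that fit. CPM values are TMM scaled. Adjusted p-values (Benjamini-Hochberg) cover all 19626 tested genes. Intervals cover the spread between libraries. The named members were, in each comparison with control, up to 5 rises and 5 falls that passed, and always the cyclins E, E2F1, E2F2, CDC6, CDT1, MCM2 to MCM7, PCNA, RRM2 and SLBP. Other genes were up to 3 rises and 3 falls per list. ORC3 was added after its values were seen. Of the other replication genes, 1 that the rule named is not reported here. The alternatives were DESeq2 1.42.0, other scalings, filters, thresholds and sets of libraries, and title runs as a block. Positions and promoters are RefSeq's on GRCh38.p14. The steps were tested on simulated data.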

Additional observations from a re-analysis of the deposited data

Results flagged for a closer look

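Single libraries stood apart from the rest of their group for some members. Dixon's test was applied to 20 members in each group of 4 to 6 libraries, 140 combinations, and 13 exceeded the 95% critical value, where chance gives about 1 in 20. CCNE1 was highest in replicate 6 of 3 groups of 24 h, at 22.1 CPM in control (others 11.9 to 13.9), 17.5 CPM under EGF (others 10.6 to 12.5) and 19.4 CPM under AII (others 11.6 to 13.6). UHRF1 was highest in the same 3 libraries, at 367 CPM in control (others 274 to 304), 297 CPM under EGF (others 240 to 256) and 326 CPM under AII (others 252 to 269). AII + EGF 24 h replicate 6 was also the highest of its group for CCNE1, at 16.3 CPM (others 10.3 to 12.8), and for UHRF1, at 290 CPM (others 208 to 262). Neither value exceeded the critical value. Under AII + EGF at 24 h, replicate 6 was highest for POLA1, at 116 CPM (others 67.3 to 84.1), and for POLE, at 206 CPM (others 156 to 163). These 4 libraries are those of title run 8.

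AII 24 h replicate 3 was high for MCM4, at 586 CPM (others 483 to 511), and for RRM2, at 193 CPM (others 149 to 159), and low for POLE, at 148 CPM (others 197 to 215). EGF 24 h replicate 1 was low for MCM10, at 47.7 CPM (others 54 to 56.1), and AII + EGF 6 h replicate 5 was high for CCNE1, at 27.7 CPM (others 23.9 to 24.5).

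The response to AII + EGF differed between 24 h and 6 h for 8 members in edgeR's test of the difference itself. The log2 response at 24 h was higher than at 6 h by 1.34 for CDT1, 0.79 for POLD1, 0.65 for ORC1 and 0.52 for LIG1. The difference, 24 h minus 6 h, was -0.91 for CCNE2, -0.85 for RRM2, -0.55 for GINS3 and -0.41 for MCM10.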

How the results depend on the processing

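No paired analysis was possible because the labels and columns carry no replicate numbers that pair libraries. Title runs as a block stand in for it and are no labelled batch. Of the 47 members, the count that passed under AII + EGF at 6 h was 7 as reported, 17 with library totals in place of TMM factors (2 higher, 15 lower) and 12 at an adjusted p under 0.05 (5 higher, 7 lower). Of all tested genes 23.4%, 24.1% (9.27% higher, 14.8% lower) and 33.3% passed in these fits. It was 5 to 10 under the other alternatives and 5 to 7 with each library left out. With library totals the median over all tested genes moved from -0.032 to -0.136 and that of the members from -0.05 to -0.15, and CCNE2 no longer passed.

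Under AII at 6 h the count was 1 as reported. It was 0 with all 48 libraries, with 40 libraries (only the near-identical pairs left out), without title runs 7 and 8, with only the groups compared, without a filter on low counts, with the study's filter, with the study's fold minimum and with title runs as a block, and 0 to 1 with each library left out. Under EGF at 6 h it was 1 as reported. It was 0 with 40 libraries, without runs 7 and 8, with only the groups compared, with RLE factors, without a filter, with the study's filter, with the fold minimum and with each library left out. It was 2 with all 48 libraries, with DESeq2, at the looser threshold, with title runs as a block and with pairs of runs as a block, where 4.44% to 6.82% of all genes passed, against 3.37% as reported.

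At 24 h the count stayed 0 under AII in every alternative and with each library left out. Under EGF it was 0 with each library left out and 1 with title runs as a block (5.48% of all genes). Under AII + EGF it was 3 as reported and 2 to 7 with each library left out. With the share of all genes in brackets (10.4% as reported), it was 0 with only the groups compared (3.59%) and with the fold minimum (2.9%), 5 with DESeq2 (12.6%), 7 without runs 7 and 8 (13.9%) and 8 at the looser threshold (19.6%). It was 12 with title runs as a block (4 higher, 8 lower; 22.4%) and 10 with pairs of runs as a block (19.8%), an alternative chosen after seeing the data. The interactions gave 0 at both times in every alternative and with each library left out.

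For control 24 h against 6 h the count was 13 as reported and 6 to 17 with each library left out. With the share of all genes that fell in brackets (9.16% as reported), it was 3 with all 48 libraries (2.75%), 20 without runs 7 and 8 (11.4%), 0 with only the groups compared (1.7%) and 8 with library totals (5%). It was 7 without a filter (2.91%), 8 with the study's filter (4.47%), 27 at the looser threshold (15.6%) and 2 with the fold minimum (1.96%). All of these were falls. Title runs as a block could not be fitted here, since each run holds 1 time. The median of the members was -0.16 with all 48 libraries and -0.19 with library totals, against -0.28 as reported. The causes of these shifts were not tested. No member that passed changed its sign in any alternative.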
